A study of Mus musculus with 8 samples.

Results

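The 10 genes described here encode receptors that recognise fungal and bacterial surfaces and the proteins that carry their signal: the C-type lectin receptors Clec7a, Clec4n and Clec4e, the toll-like receptors Tlr2, Tlr4 and Tlr6 with the co-receptor Cd14, and the adaptors and kinase Myd88, Card9 and Syk. Mushrooms are fungi, and fungal cell walls carry ligands of several of these receptors. The genes were chosen by name, each stands for the only probe set of the array that names it alone, and they are 10 of 19938 genes tested. Liver RNA was taken from 4 OVX mice fed with HFD+WBM and 4 OVX mice fed with HFD, and each mouse was hybridized to its own Affymetrix Mouse Gene 1.0 ST array. OVX marks female C57B1/6J mice whose ovaries were removed at an age of 7 weeks, HFD is a high fat diet, and WBM is powder of freeze-dried white button mushroom, Agaricus bisporus, mixed into that diet partly in place of corn starch. Feeding began 1 week after the operation and lasted 3 months, with food intake matched by weight between diets. The surgery and the listed lard and corn oil are common to both groups, which differ in mushroom powder and corn starch. More powder was added than corn starch taken out, and the powder brings its own protein, fiber and fat. The mice on arrays were 4 of the 8 in each diet group, and OVX mice, used to model postmenopausal women, still make some estrogen outside the ovary. Sham-operated mice were not analysed here, so these values hold for ovariectomized mice on a high fat diet.

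beta-Glucans are glucose polymers of the fungal cell wall. Clec7a, also called Dectin-1, binds beta-glucan on macrophages, dendritic cells and neutrophils, while Clec4n (Dectin-2) and Clec4e (Mincle) bind mannose-containing and glycolipid ligands of fungi and mycobacteria and signal through the chain encoded by Fcer1g. All 3 lectins act through the kinase Syk and the adaptor Card9 to NF-kB, and Tlr2, Tlr4 and Tlr6 reach NF-kB through Myd88. In liver these receptors are best known from Kupffer cells, the resident macrophages of the sinusoids, and from recruited myeloid cells.

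The array values are on the log2 scale, so that a difference of 1 is a 2-fold change. Over 28944 probe sets the array medians were 7.11 to 7.19 with HFD+WBM and 7.04 to 7.22 with HFD, and arrays correlated with each other at 0.920 to 0.973. HFD replicate 3 stood farthest from the rest: its genes scattered around the average of the remaining arrays with an SD of 0.678, where the other 7 arrays had 0.384 to 0.499. Hepatocyte markers were bright on every array: the mean of the 7 measured was 13.39 to 13.51 with HFD+WBM and 13.17 to 13.40 with HFD. Of the 10 receptor and adaptor genes, 8 had a mean below 7.27, the median of all genes tested, so that most lie in the dimmer part of the array. No detection call was used, and the brightness of different probe sets does not rank the genes by abundance.

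With mushroom in the diet, 2 of the 3 lectin receptors and 1 of the 3 toll-like receptors were lower in liver. Clec4n, Clec7a and Tlr6 were lower at p under 0.05 before adjustment from limma, none was higher, and 7 did not pass. Over all genes tested, 6.90% were lower and 4.85% were higher at that threshold, 11.7% in either direction. Clec4n and Clec7a were also past the study's thresholds (p under 0.05 and at least 2-fold), which 0.497% of all genes passed as lower and 0.266% as higher, 0.762% together. The estimate was below 0 for 8 of the 10 genes, against 49.3% of all genes, and the median log2 fold change was -0.28, against 0.01 over all genes. No gene of the array had an adjusted p under 0.05 (Benjamini-Hochberg, limma), while 2341 had p under 0.05 before adjustment, and the methods' t-test also left 0 after adjustment. The 10 genes had adjusted p from 0.36 to 0.97. Of 17 markers of Kupffer cells and macrophages, 13 were lower in the same comparison. In whole liver, fewer cells of a type and less RNA per cell cannot be told apart, and the part of macrophage number in the receptor values was not tested.

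**Figure D1:**
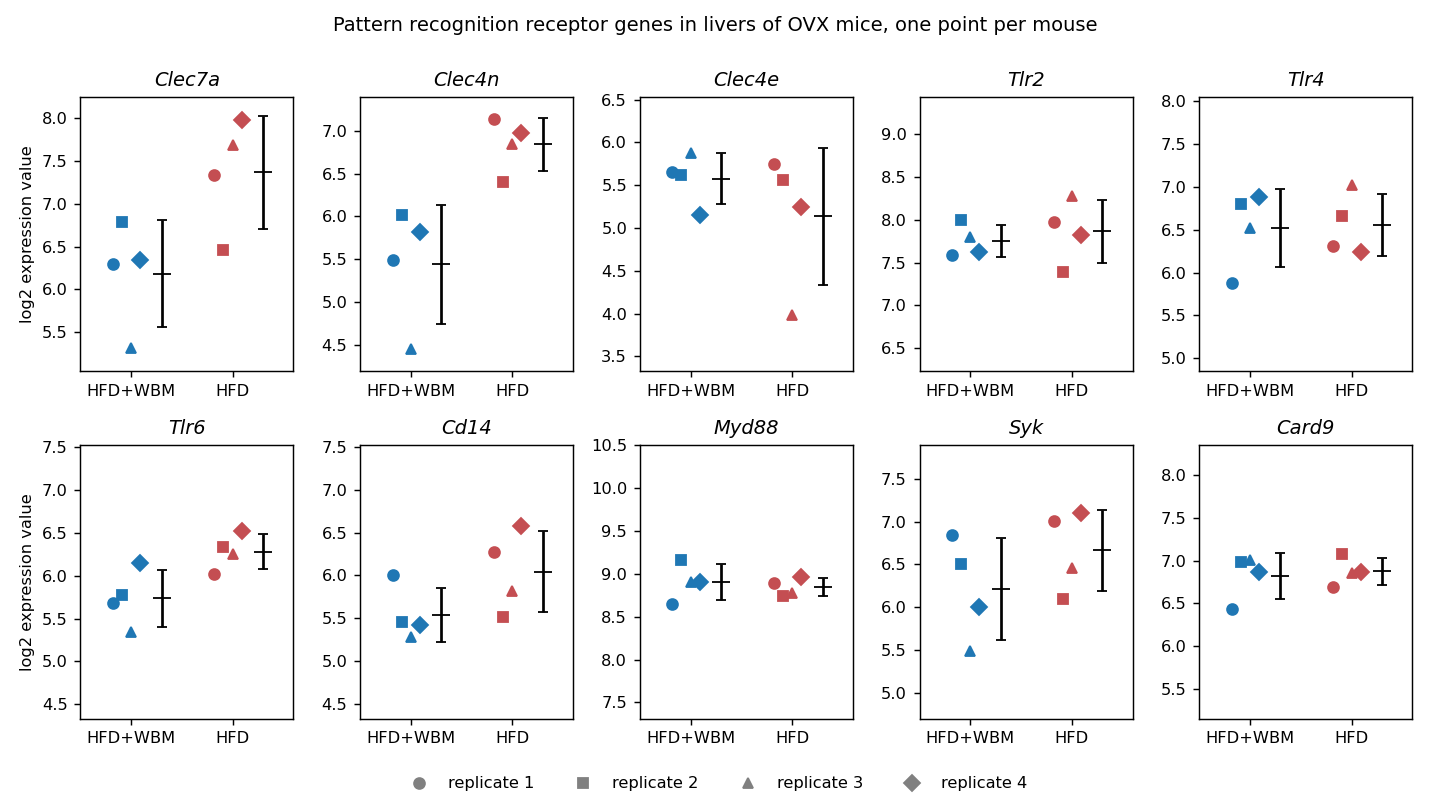
Log2 expression value (vertical axis) of each of the 10 genes in each OVX mouse, HFD+WBM in blue and HFD in red, with a marker shape per replicate number and the mean ± SD of 4 mice as a bar; every panel spans the same number of log2 units. The groups are apart for Clec4n alone, and HFD+WBM replicate 3 (blue triangle) is the lowest mouse for Clec7a, Clec4n, Tlr6, Cd14 and Syk.

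Clec4n (probe set 10541605) showed the clearest difference. Its log2 value was 5.50, 6.01, 4.45 and 5.81 in HFD+WBM replicates 1 to 4, and 7.14, 6.40, 6.85 and 6.97 in HFD replicates 1 to 4. Every HFD+WBM mouse thus lay below every HFD mouse, which was so for 5.02% of all genes, while 3.21% lay apart in the other direction. The mean was 5.44 ± 0.70 with HFD+WBM and 6.84 ± 0.31 with HFD (SD, n = 4 each), 2.64-fold lower (log2 fold change -1.40, standard error 0.33). Limma gave p = 0.0018 before adjustment and an adjusted p of 0.36, and the exact permutation test, two-sided, gave p = 0.029, the smallest p that 4 mice against 4 allow. When limma's prior variance was allowed to vary with signal, Clec4n had an adjusted p of 0.034, and with an offset of 64 before the log it had an adjusted p of 0.032 at a log2 fold change of -0.71. Over all settings with the 8 mice its adjusted p was 0.032 to 0.56.

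Clec7a (probe set 10548375), the beta-glucan receptor itself, was also lower. Its log2 value was 6.30, 6.79, 5.31 and 6.34 in HFD+WBM replicates 1 to 4, and 7.34, 6.46, 7.69 and 7.98 in HFD replicates 1 to 4. The groups overlapped through HFD replicate 2, which lay below HFD+WBM replicate 2. The mean was 6.18 ± 0.62 with HFD+WBM and 7.36 ± 0.66 with HFD (SD, n = 4 each), 2.27-fold lower (log2 fold change -1.18, standard error 0.38). Limma gave p = 0.012 before adjustment and an adjusted p of 0.37, and the exact permutation test gave p = 0.057. The log2 fold change of Clec7a was -0.89 when HFD+WBM replicate 3 was left out and -0.98 when HFD replicate 4 was, both under 2-fold, and it was -0.74 with an offset of 64 before the log. It stayed past p under 0.05 before adjustment whichever mouse was left out.

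Clec4e (probe set 10547664), the third lectin, did not pass. Its log2 value was 5.66, 5.62, 5.88 and 5.16 in HFD+WBM replicates 1 to 4, and 5.75, 5.56, 3.98 and 5.25 in HFD replicates 1 to 4. The HFD+WBM mice lay within a narrow range and HFD replicate 3 lay far below them. The log2 fold change was 0.44 (95% interval -0.36 to 1.25), and without HFD replicate 3 it was 0.06. The log2 value of Clec4n minus that of Clec4e on the same array was -1.43 to 0.66 with HFD+WBM and 0.84 to 2.87 with HFD, so the groups did not overlap (difference -1.84, exact permutation p = 0.029, and 0.12 after Benjamini-Hochberg adjustment over 4 such pairs). The same comparison of Clec7a with Clec4e gave -0.56 to 1.18 with HFD+WBM and 0.89 to 3.71 with HFD, with an exact permutation p of 0.086 (adjusted 0.17). The highest difference of each pair was that of HFD replicate 3, the mouse with the low Clec4e value. Each of the 4 pairs set a gene called lower against one that did not pass, a choice that the adjustment does not cover. Clec4n alone already separated the groups with an exact permutation p of 0.029, so its pair with Clec4e is no separate support.

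**Figure D2:**
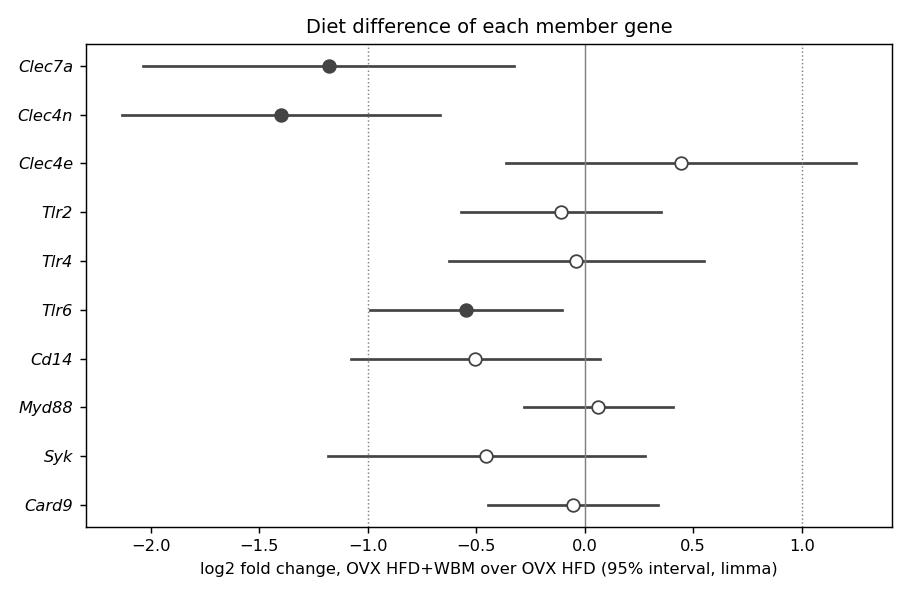
Log2 fold change of each of the 10 genes, OVX HFD+WBM over OVX HFD (horizontal axis), with its 95% interval from limma; filled points have p under 0.05 before adjustment and dotted lines mark a 2-fold change in either direction. The intervals of Clec7a (-2.03 to -0.33), Clec4n (-2.13 to -0.67) and Tlr6 (-0.99 to -0.10) lie below 0, and those of the other 7 genes include 0.

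The upstream DNA of the receptor genes is shown for Clec7a and Tlr6, which were lower, and for Clec4e, which did not pass. Of the 10 genes 7 have a promoter in the RefSeq table of GRCm38.p6 used here (Clec4n, Tlr4 and Cd14 were not matched), with 10 windows in all since Clec7a, Tlr6 and Syk have more than 1 start. The 250 bases before the start were searched on both strands for the letters of 6 motifs, and capitals mark the matches. The windows printed are chr6:129472780-129473029 (minus strand) for Clec7a, chr5:64959167-64959416 (minus strand) for Tlr6 and chr6:123289872-123290121 (minus strand) for Clec4e, each 5′ to 3′ along the gene.
Clec7a: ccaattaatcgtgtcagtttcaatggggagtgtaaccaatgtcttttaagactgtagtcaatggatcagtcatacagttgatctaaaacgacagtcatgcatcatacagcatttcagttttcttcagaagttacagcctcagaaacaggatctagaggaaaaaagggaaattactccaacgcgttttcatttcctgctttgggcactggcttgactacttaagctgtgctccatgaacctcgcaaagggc
Tlr6: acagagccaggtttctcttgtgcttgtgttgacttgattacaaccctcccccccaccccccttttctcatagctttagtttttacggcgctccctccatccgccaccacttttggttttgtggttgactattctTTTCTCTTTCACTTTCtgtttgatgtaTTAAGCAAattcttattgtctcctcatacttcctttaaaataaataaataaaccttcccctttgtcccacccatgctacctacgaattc
Clec4e: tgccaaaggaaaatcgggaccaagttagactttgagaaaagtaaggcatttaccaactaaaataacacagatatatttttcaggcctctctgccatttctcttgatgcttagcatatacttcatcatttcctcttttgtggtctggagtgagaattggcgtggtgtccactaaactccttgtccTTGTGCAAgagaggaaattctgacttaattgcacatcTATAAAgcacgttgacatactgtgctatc

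The Clec7a window held none of the 6 motifs. The Tlr6 window held a pair of overlapping matches to the interferon-stimulated response element (GAAA, any 2 bases, GAAA), between 116 and 101 bases before the start, and a C/EBP match (TTGCNNAA), all on the opposite strand. Of all 32851 windows in the table, 2.98% held the interferon element and 9.56% the C/EBP letters. Clec4e carried a TATA box (TATAAA, in 12.4% of all windows) from 29 to 24 bases before its start, and a C/EBP match on the opposite strand from 66 to 59. Of the windows not printed, that of Myd88 held a match to the interferon element and to the TATA box, the second start of Tlr6 held TATA box letters, and the others held none. None of the 10 windows held the PU.1 letters GAGGAAGT (2.44% of all windows), the NF-kB letters (GGGA, any base, TTTCC, in 0.356%) or the AP-1 letters TGANTCA (6.75%). Looser spellings of the motifs were not searched. The Tlr2 window, for example, holds GGGAATTCCC, close to the NF-kB letters but not a match. All of these are letters in a short window and bear on no factor's binding.

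Among the toll-like receptors of the set, Tlr6 was lower and Tlr2 and Tlr4 did not pass. Tlr6 (probe set 10530151), which pairs with Tlr2 to recognise diacylated lipopeptides and yeast zymosan, was 5.68, 5.77, 5.34 and 6.15 in HFD+WBM replicates 1 to 4, and 6.02, 6.34, 6.25 and 6.52 in HFD replicates 1 to 4. Only HFD+WBM replicate 4 reached into the HFD range. The mean was 5.74 ± 0.33 with HFD+WBM and 6.28 ± 0.21 with HFD (SD, n = 4 each), 1.46-fold lower (log2 fold change -0.55, standard error 0.20). Limma gave p = 0.021 before adjustment and an adjusted p of 0.39, and the exact permutation test gave p = 0.057. Tlr6 no longer passed p under 0.05 when HFD+WBM replicate 3 (log2 fold change -0.42) or HFD replicate 4 (-0.47) was left out, or when limma's prior variance was allowed to vary with signal.

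Tlr2 (probe set 10498992), the shared partner of Tlr1 and Tlr6, was 7.59, 7.995, 7.80 and 7.63 in HFD+WBM replicates 1 to 4, and 7.97, 7.39, 8.28 and 7.82 in HFD replicates 1 to 4. All 4 HFD+WBM mice lay inside the HFD range (log2 fold change -0.11, 95% interval -0.57 to 0.35). Tlr4 (probe set 10505517), the receptor of bacterial lipopolysaccharide, was 5.87, 6.80, 6.52 and 6.89 in HFD+WBM replicates 1 to 4, and 6.31, 6.66, 7.03 and 6.25 in HFD replicates 1 to 4, with a log2 fold change of -0.04 (95% interval -0.63 to 0.55). The signs of both estimates changed with the mice included: Tlr2 was 0.03 without HFD replicate 3, and Tlr4 was 0.18 with HFD+WBM replicate 1 left out and 0.12 with HFD replicate 3 left out. Whether Tlr6 moved apart from Tlr2 or Tlr4 was tested on the same arrays, and neither pair passed. The log2 difference of Tlr6 minus Tlr2 moved by -0.44 (exact permutation p = 0.23) and that of Tlr6 minus Tlr4 by -0.51 (exact permutation p = 0.20), each 0.23 after adjustment over the 4 pairs.

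Cd14 (probe set 10458382), which hands lipopolysaccharide and lipopeptides to toll-like receptors, was 6.00, 5.46, 5.28 and 5.42 in HFD+WBM replicates 1 to 4, and 6.27, 5.52, 5.81 and 6.57 in HFD replicates 1 to 4. HFD+WBM replicate 1 lay among the HFD mice, and HFD replicate 2 lay close to the other 3 HFD+WBM mice. The log2 fold change was -0.50 (95% interval -1.08 to 0.07), with an exact permutation p of 0.14. It passed p under 0.05 before adjustment from limma when either HFD+WBM replicate 1 (-0.66) or HFD replicate 2 (-0.68) was left out, and with no other mouse left out.

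The signalling proteins inside the cell did not pass. Syk (probe set 10405216), the tyrosine kinase that docks on the lectin receptors, was 6.85, 6.50, 5.50 and 6.01 in HFD+WBM replicates 1 to 4, and 7.01, 6.09, 6.46 and 7.10 in HFD replicates 1 to 4 (log2 fold change -0.45, 95% interval -1.18 to 0.28). Its values spread widely in both groups, and the estimate was -0.21 without HFD+WBM replicate 3. Card9 (probe set 10480956), which joins Syk to NF-kB, was 6.43 to 7.00 with HFD+WBM and 6.69 to 7.08 with HFD (log2 fold change -0.05, 95% interval -0.44 to 0.34). Myd88 (probe set 10597648), the adaptor of most toll-like receptors, was 8.65 to 9.17 with HFD+WBM and 8.74 to 8.96 with HFD (log2 fold change 0.06, 95% interval -0.28 to 0.41). For Myd88 and Card9 the intervals keep within a 1.5-fold change either way. The sign of Card9 turned when HFD+WBM replicate 1 (0.08) or HFD replicate 2 (0.01) was left out, and that of Myd88 without HFD+WBM replicate 2 (-0.02).

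**Figure D3:**
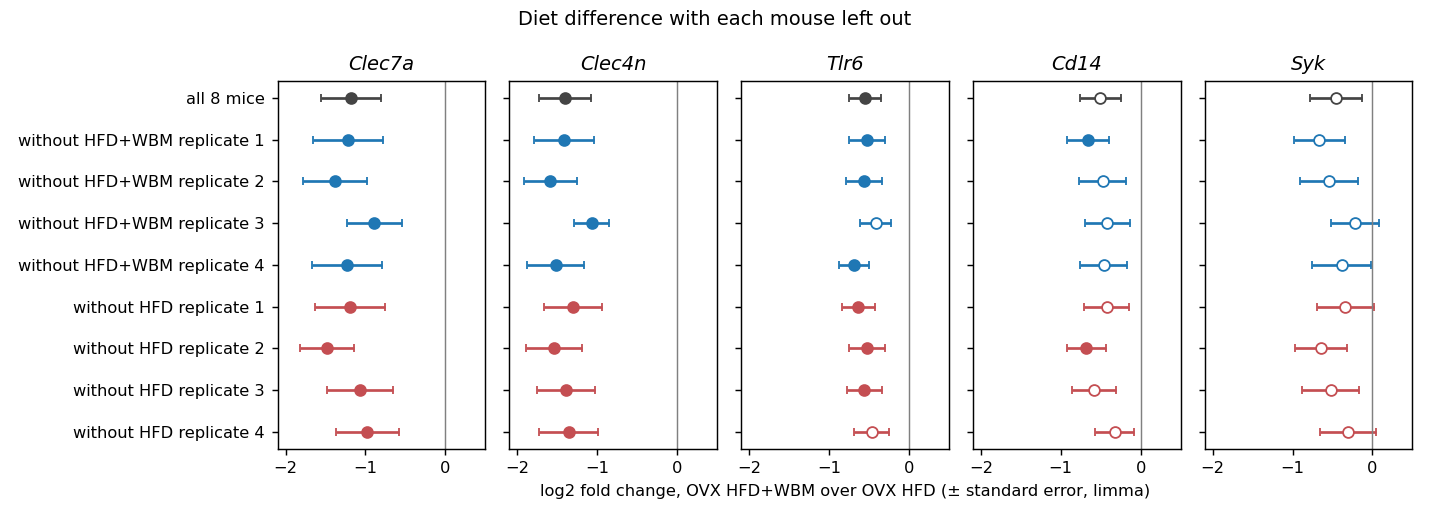
Log2 fold change of Clec7a, Clec4n, Tlr6, Cd14 and Syk, OVX HFD+WBM over OVX HFD (horizontal axis), ± standard error from limma, with all 8 mice (grey), without each HFD+WBM mouse (blue) and without each HFD mouse (red); filled points have p under 0.05 before adjustment. Clec4n ranges from -1.59 to -1.07 and Clec7a from -1.48 to -0.89 with every point filled, while Tlr6 loses its call without HFD+WBM replicate 3 or HFD replicate 4.

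Beyond the set, more toll-like receptor genes were lower with HFD+WBM. Of the 10 toll-like receptor genes that the array measured here, 7 were lower at the same p threshold (70.0%, against 6.90% of all genes) and none was higher (against 4.85%). Tlr2, Tlr4 and Tlr9 did not pass. All 10 estimates were below 0 (median log2 fold change -0.65). Tlr1, which pairs with Tlr2 to recognise triacylated lipopeptides, was 5.44, 5.33, 2.92 and 5.19 in HFD+WBM replicates 1 to 4, and 6.22, 6.08, 6.71 and 5.96 in HFD replicates 1 to 4. The groups did not overlap, and the 2.87-fold lower mean became 1.89-fold lower without HFD+WBM replicate 3. Of the receptors that sense nucleic acids in endosomes, Tlr7 (1.69-fold), Tlr8 (2.10-fold), Tlr3 (1.43-fold) and the mouse receptor Tlr13 (1.70-fold) were lower, as was Tlr12 (1.72-fold), which senses a parasite protein. For Tlr7, Tlr12 and Tlr13 the groups did not overlap either. Over all genes, 5.02% lay apart as lower and 3.21% as higher. Signal was low: for every gene called lower except Tlr12 (mean 7.21 with HFD+WBM and 7.99 with HFD), both means were below 7.27, the median of all genes. They were 4.29 with HFD+WBM and 5.36 with HFD for Tlr8, 4.72 and 6.24 for Tlr1, and 5.60 and 6.36 for Tlr13. The count of 7 was 4 to 7 when a mouse was left out, with 4 without HFD replicate 4. It was 5 with a prior variance varying with signal, and 7 with quantile normalization or an offset of 64 before the log. Tlr3 and Tlr8 lost their calls in 5 of the 8 fits with a mouse left out (log2 fold changes of -0.65 to -0.42 for Tlr3 and -1.38 to -0.82 for Tlr8), and Tlr1, Tlr7, Tlr12 and Tlr13 in none. Tlr1 and Tlr6 are closely related neighbouring genes, and whether their probes tell them apart was not tested.

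**Figure D4:**
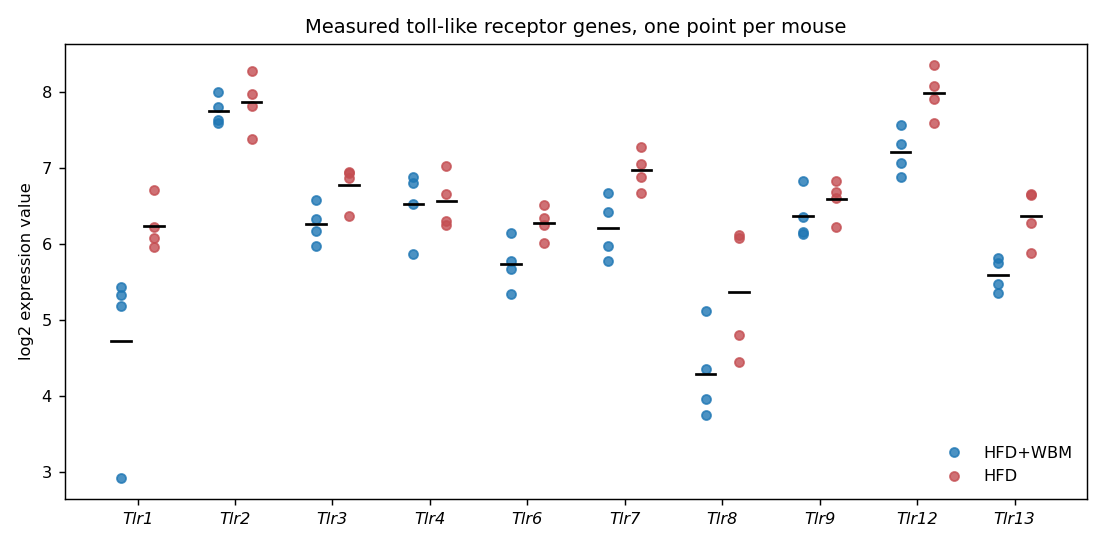
Log2 expression value (vertical axis) of each measured toll-like receptor gene in each OVX mouse, HFD+WBM in blue on the left and HFD in red on the right of each gene, with the mean of 4 mice as a line. The groups are apart for Tlr1, Tlr7, Tlr12 and Tlr13 and overlap for the other 6 genes, and a single HFD+WBM mouse at 2.92 pulls the mean of Tlr1 down.

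Besides the receptors themselves, 5 of their partners were lower: Ly86, Ly96, Cd180, Sigirr and Ticam1. Of 27 measured genes of this list, which holds the receptors outside the set, their accessory proteins and adaptors, 11 were lower, none was higher and 16 did not pass (median log2 fold change -0.34). That is 40.7% lower, against 6.90% of all genes, and 6 of the 11 are toll-like receptors already counted above. Ly86, the soluble partner of Cd180 on B cells and macrophages, was 7.54 to 8.43 with HFD+WBM and 8.47 to 9.22 with HFD, 1.78-fold lower. Its groups did not overlap, as for 5.02% of all genes in this direction. Ly96, the lipopolysaccharide-binding partner of Tlr4 also called MD-2, was 7.01 to 7.22 with HFD+WBM and 7.35 to 7.74 with HFD (log2 fold change -0.49, standard error 0.15), again with no overlap, while Tlr4 itself did not pass. The count of 11 was 6 without HFD replicate 3, and 8 to 11 without any other mouse. Cd180 (log2 fold change -0.69), a receptor related to Tlr4, lost its call in 5 of the 8 fits with a mouse left out, Sigirr (-0.38), an inhibitory receptor, in 4 and the adaptor Ticam1 (-0.44) in 5, while Ly86 and Ly96 kept theirs. Ly96, Cd180, Sigirr and Ticam1 lie outside the rule for named genes and were named after their values were seen.

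The partners of the C-type lectin receptors, a list that also holds other C-type lectin receptors, passed about as often as all genes. Its genes with a Clec symbol, Clec12a among them, are counted again below. Of 28 measured, 2 were lower (7.14%, against 6.90% of all genes), 1 was higher (3.57%, against 4.85%) and 25 did not pass (median log2 fold change -0.22). Fcer1g, the signalling chain of Clec4n and Clec4e, was 8.86 to 9.26 with HFD+WBM and 9.09 to 9.93 with HFD (1.48-fold lower, a call lost when replicate 1 or 3 of either diet was left out). Clec12a, an inhibitory lectin of myeloid cells, was 6.28 to 7.30 with HFD+WBM and 7.29 to 8.21 with HFD (1.92-fold lower, past p under 0.05 whichever mouse was left out). Cblb, a ubiquitin ligase that restrains Syk signalling, was 1.38-fold higher, and lost its call in 6 of the 8 fits with a mouse left out. Itgb2, the beta chain of complement receptor 3, another receptor of beta-glucan, had a log2 fold change of -0.57 (adjusted p = 0.43) and did not pass.

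The genes at the output of these pathways were lower about as often as all genes. Of 28 measured NF-kB and inflammasome genes, 2 were lower (7.14%, against 6.90% of all genes), none was higher (against 4.85%) and 26 did not pass, with a median log2 fold change of -0.02. The 2 were the cytokine genes Il1a (1.70-fold lower) and Il10 (log2 fold change -0.67). Il10 ranged from -0.87 to -0.52 with a mouse left out and lost its call without HFD+WBM replicate 1 or 3 or HFD replicate 4, while Il1a kept its own. Casp1, the inflammasome protease (log2 fold change -0.61), and the neutrophil chemokine Cxcl2 (0.40) did not pass. Of 20 measured genes for other receptors of microbial and fungal surfaces, 3 were lower (15.0%) and none was higher (median -0.19): Ddx58, the cytosolic RNA sensor RIG-I (1.38-fold), Msr1, a macrophage scavenger receptor (1.44-fold), and Nod1, a sensor of bacterial peptidoglycan (1.38-fold). Ddx58 kept its call whichever mouse was left out, Msr1 lost it without HFD+WBM replicate 1 (log2 fold change -0.45), and Nod1 lost it in 5 of the 8 fits (-0.60 to -0.39). Mbl1, a mannose-binding lectin made by hepatocytes, had a log2 fold change of -0.56 and did not pass.

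Clec7a, Clec4n and Clec4e belong to a large family, and most of its measured genes did not pass. Of 33 measured genes with a Clec symbol, 9 were lower (27.3%, against 6.90% of all genes), 1 was higher and 23 did not pass, with a median log2 fold change of -0.08. Besides Clec7a and Clec4n the lower ones were Clec12a, Clec4f, Clec4a1, Clec4a3, Clec11a, Clec14a and Clec16a, with log2 fold changes from -0.94 to -0.36, and Clec2h was higher (0.39). Genes with this symbol have different roles: Clec4f marks Kupffer cells, Clec14a endothelial cells, Clec11a encodes a secreted growth factor and Clec16a an intracellular protein. The count of 9 was 5 to 9 with a mouse left out, and 5 without HFD+WBM replicate 1, 3 or 4. The families of lectins and toll-like receptors were described after values were seen.

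The lectin genes next to Clec4n on the chromosome did not pass. In the gene order of GRCm38.p6, Clec4n lies on chromosome 6 between Clec4b2 and Clec4d, with Clec4e the next lectin after Clec4d. Clec4b2 (log2 fold change 0.18), Clec4d (0.17) and Clec4e (0.44) did not pass, and of the 8 measured genes within 5 places of Clec4n, Clec4a3 (-0.48), the fifth away on the side of Clec4b2, was the one that did, a call lost in 6 of the 8 fits with a mouse left out. Clec7a lies in another cluster of the same chromosome, between Clec1a (-0.08) and Olr1 (-0.15), neither of which passed, and Clec12a (-0.94) is the fifth gene away. Tlr6 lies next to Tlr1 (-1.52) on chromosome 5, and Fam114a1 on its other side was also lower (-0.53).

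The genes most like 1 receptor of each kind were sought across the 8 mice. Over the 8 arrays, the genes outside the set with the highest Pearson correlation to Clec7a were Msn (0.98), Laptm5 (0.98) and Cd93 (0.98), with log2 fold changes of -0.52, -0.58 and -0.64, and the correlations stayed between 0.95 and 0.97 with the diet means removed. Within the set, Clec4n came closest to Clec7a (0.93, and 0.84 with the diet means removed). Syk (0.78 and 0.75), Tlr6 (0.76 and 0.48) and Cd14 (0.76 and 0.60) came next, while Card9 (-0.13) and Clec4e (-0.56) did not follow Clec7a. For Tlr2 the closest genes were Ubr1 (0.98), Gpx8 (0.97) and Prkcb (0.94), and for Myd88 they were Tgoln1 (0.96), Slc16a13 (0.95) and Tas2r130 (0.94). With the diet means removed the closest were Pde11a (0.99), Olfr803 (0.99) and Atp6ap2 (0.98) for Clec7a, Ubr1, Clec4a3 (0.98) and Gpx8 for Tlr2, and Med12 (0.98), Slc16a13 and Dync1h1 (0.97) for Myd88. With 19938 genes and 8 arrays, the highest of so many correlations is high by selection alone, and all are given as description. Clec7a, Clec4n, Syk, Tlr6 and Cd14 share the low value of HFD+WBM replicate 3.

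Most macrophage markers were lower with HFD+WBM, as were Clec7a, Clec4n and Tlr6 among the 10 genes. Of the 17, 13 were lower (76.5%, against 6.90% of all genes), none was higher (against 4.85%) and 4 did not pass. The median log2 fold change was -0.66, and the count of lower markers was 11 to 14 with a mouse left out. Their mean log2 value was 8.89, 9.35, 8.93 and 9.24 in HFD+WBM replicates 1 to 4, and 9.90, 9.31, 9.87 and 9.65 in HFD replicates 1 to 4, so that HFD replicate 2 lay just below the highest HFD+WBM mouse, as it did for Clec7a. C1qc, a complement subunit made by macrophages (1.74-fold lower), and Cd68, a macrophage lysosomal protein (1.68-fold), had the smallest p. The log2 fold changes of the 17 markers ran from -0.94 to 0.03, and how far the receptor estimates go with them was not tested. Clec4f belongs to this list as well as to the lectin family. The lowest single value among the 17 markers was 5.26, of Marco, below 7.27, the median of all genes.

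**Figure D5:**
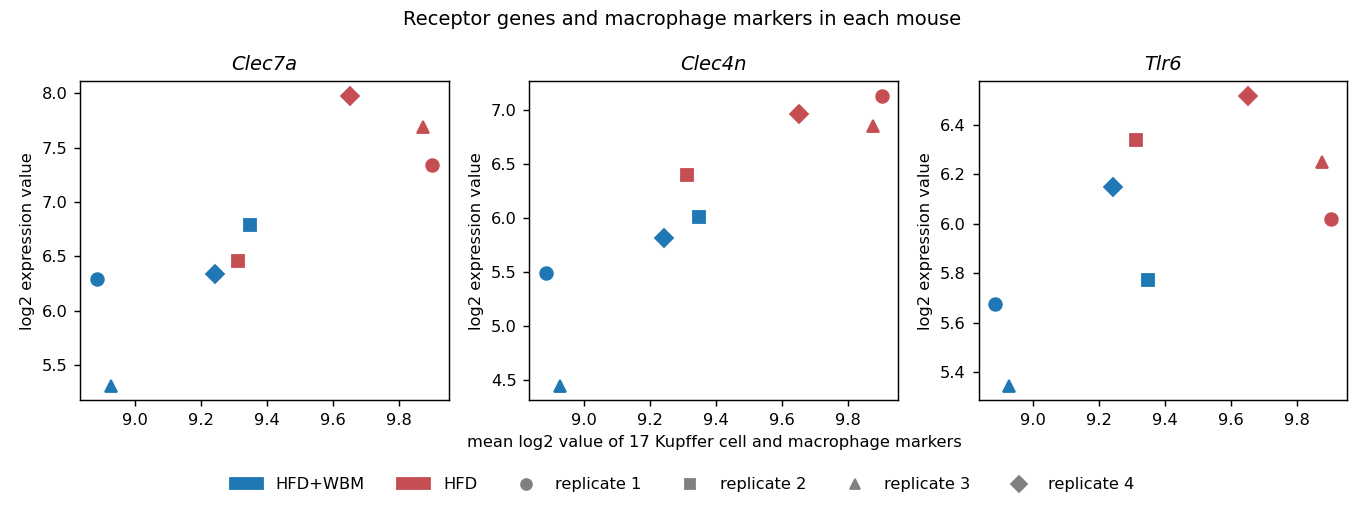
Log2 expression value of Clec7a, Clec4n and Tlr6 (vertical axes) against the mean log2 value of 17 Kupffer cell and macrophage markers (horizontal axis) in each OVX mouse, HFD+WBM in blue and HFD in red, with a marker shape per replicate number. HFD replicate 2 (red square, 9.31 on the horizontal axis) lies among the HFD+WBM mice for the markers and for Clec7a, and above all of them for Clec4n and Tlr6.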

How the data were processed

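Livers of 8 OVX mice, HFD+WBM (4) and HFD (4), were each measured on 1 array. The sample labels gave control or WBM and a replicate number, and OVX and the diets were taken from the study's methods. Background correction, normalization and summary per probe set were done by the authors with the IterPLIER method (Affymetrix Power Tools 1.8.6), and they deposited log2 values for 28944 probe sets. The between-array method and any offset added before the log: not given in the sources used here. Scanner files were not used.

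The platform annotation gave the gene names. Of probe sets naming a single gene (21789), the one with the highest mean per gene was kept, and 19938 genes were tested with limma 3.58.1 in R 4.3.3, diet being the only term, with Benjamini-Hochberg adjustment over all genes. Exact permutation tests were two-sided over the 70 divisions of 8 mice. The fit was tested on simulated data. The number of arrays limits the precision. The 10 genes, the lists and the rule for named genes (all 10 genes, the 4 smallest p of each pathway list and 2 of each marker list, and the 3 genes most correlated with Clec7a, Tlr2 and Myd88) were chosen with earlier results of these data known. List genes without a single-gene probe set were not analysed here.

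Other settings were array centring, quantile normalization, offsets of 16 and 64 before the log, the 50% brightest genes, all rows of the value table, averaging the probe sets of each gene, a prior variance varying with signal, array weights, an equal-variance t-test (called the methods' t-test here: the methods name a t-test for the diets in mice, and for the arrays the package ArrayTools with no test), a block for the replicate number, a 1.5-fold threshold, and leaving out each mouse.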

Additional observations from a re-analysis of the deposited data

Results flagged for a closer look

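In 138 groups of 4 mice, a mouse far from the other 3 was found 5 times, where chance gives about 1 in 20 groups. None of the 5 was in the 10 receptor and adaptor genes. The groups covered the 10 genes, the genes that the naming rule takes from each list by smallest p, and all measured toll-like receptor genes. They also covered the genes with a Clec symbol called at p under 0.05 from limma, and the list means. Other genes named or counted here, such as Ly96, Cd180, Lum and most macrophage markers, were not checked. Tlr1 was 2.92 in HFD+WBM replicate 3, where the rest of that group had 5.19 to 5.44. Itga4, an integrin of monocytes, was 4.93 in the same mouse, against 6.58 to 6.79. Clec2h was 7.86 in HFD+WBM replicate 2, against 7.46 to 7.51. Clec16a was 9.18 in HFD replicate 1, against 8.76 to 8.79. Tlr3 was 6.37 in HFD replicate 2, against 6.88 to 6.95.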

How the results depend on the processing

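The count of receptor and adaptor genes at p under 0.05 was 3 with all mice and 2 to 4 with a mouse left out, and the count that was also at least 2-fold was 2, and 1 to 2 with a mouse left out (1 without HFD+WBM replicate 3 or HFD replicate 4, where Clec7a fell under 2-fold). An offset of 64 before the log left 0 past 2-fold. Among the 50% brightest genes both counts were 0, since only Tlr2 and Myd88 of the 10 are in it. Over all genes, 152 passed p under 0.05 and 2-fold, against 65 and 32 with offsets of 16 and 64, 43 among the 50% brightest genes, 250 over all rows of the value table, 98 by the methods' t-test (0 after Benjamini-Hochberg adjustment), 890 at 1.5-fold and 154 to 235 with a mouse left out. The count at p under 0.05 over all genes was 1716 to 2337 with a mouse left out. With array weights the log2 fold change of Tlr4 turned to 0.023. With a mouse left out, the log2 fold changes ranged from -0.270 to 0.028 for Tlr2, from -0.161 to 0.177 for Tlr4, from -0.116 to 0.076 for Card9 and from -0.023 to 0.148 for Myd88, and so changed sign. Leaving out a mouse moved the count of lower genes to 4 to 7 for toll-like receptors, 5 to 9 for genes with a Clec symbol, 6 to 11 for toll-like receptor partners and 11 to 14 for macrophage markers, settings chosen after seeing the data. Mice with the same replicate number did not deviate together (correlations of -0.117 to -0.0168), so the number was not taken as a pairing. With it as a block, 3 of the 10 genes were still lower and 1757 of all genes passed p under 0.05. The count with an adjusted p under 0.05 was 0 of all genes, against 2 and 80 with offsets of 16 and 64, 19 among the 50% brightest genes, 139 with a prior variance varying with signal, 1 without HFD+WBM replicate 2 and 0 in the rest. The cause of these shifts was not tested. Clec4n and Clec7a kept their direction and p under 0.05 in every setting in which they were fitted. Low signal limits most of the 10 genes, and the number of arrays limits all.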

Other observations

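Markers of other liver cells were looked at beside the receptors, with the same threshold of p under 0.05 before adjustment from limma, which 6.90% of all genes passed as lower and 4.85% as higher. Of 10 neutrophil markers none passed (median log2 fold change 0.23), and Retnlg and Ly6g had estimates of 0.62 and -0.43. Of 6 measured monocyte markers Ccr2, the receptor that draws monocytes into tissue, was lower (1.58-fold, a call lost in 4 of the 8 fits with a mouse left out), and Itga4 had an estimate of -0.89, with 1 HFD+WBM mouse at 4.93 far below the other 3. The monocyte estimates were below 0 for 3 and above 0 for 3 (median -0.20). Of 8 dendritic cell markers Flt3, a growth factor receptor, was lower (1.61-fold), and Clec9a had an estimate of -0.46. For Flt3 every HFD+WBM mouse lay below every HFD mouse, as for 5.02% of all genes.

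Of 10 sinusoidal endothelial markers, Lyve1, a hyaluronan receptor (2.00-fold), and Cdh5, a junction protein (1.43-fold), were lower. All 10 estimates were below 0 (median -0.24). Of 10 markers of stellate cells and fibroblasts 8 had estimates below 0 and 2 above (median -0.35). There 4 were lower at p under 0.05, with Col1a1 (1.96-fold) and Col3a1 (1.77-fold), which encode fibrillar collagens, having the smallest p. The other 2, Lum and Lrat, were named after their values were seen and lost their call in 5 and 6 of the 8 fits with a mouse left out. Cdh5 and Col3a1 each lost their call in 4 of the 8 fits with a mouse left out, and Lyve1, Col1a1 and Flt3 in none. No marker passed among those for lymphocytes, cholangiocytes and hepatocytes. Of 9 lymphocyte markers measured, 5 estimates were below 0 (median -0.14, range -0.45 to 0.67), of 6 for cholangiocytes 3 were (median 0.00076, range -0.44 to 0.40), and of 7 for hepatocytes 3 were (median 0.07, range -0.14 to 0.51). Those with the smallest p were Cd79a (0.67) and Cd8a (0.42) for lymphocytes, Krt7 (0.40) and Cldn7 (0.21) for cholangiocytes, and Pck1 (0.51) and Hnf4a (0.30) for hepatocytes. The mean log2 value of the neutrophil markers was 6.38 to 6.52 with HFD+WBM and 5.89 to 6.58 with HFD.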
